A study of Mus musculus with 23 samples.

Results

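The interferon response and antigen presentation genes described here are 49 genes, chosen by gene symbol from the 55487 genes of the deposited expression table of a study of 2 mouse models of heart failure in which the ejection fraction is preserved. They comprise 29 interferon-induced genes, 10 interferon-inducible GTPases (7 of them guanylate-binding proteins) and 10 genes of the major histocompatibility complex (MHC) pathway. Here the interferon-induced genes are taken by role, as 5 transcriptional regulators, 4 genes of nucleic acid sensing (called sensors below) and 20 effectors. The MHC pathway is taken as 6 class I and 4 class II genes. All 49 were measured and passed the filter on low values in both models.

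Interferons are secreted by cells that detect viral or misplaced nucleic acids, and by T and natural killer cells. Type I interferons act through receptors coupled to Janus kinases, which activate a complex that holds Stat2 and Irf9 and whose DNA site is the interferon-stimulated response element (ISRE). Interferon gamma acts through the gamma-activated site (GAS) in promoters and through Irf1, and it is the main inducer of guanylate-binding proteins and of MHC genes. In the heart these genes are transcribed in endothelial cells, macrophages, fibroblasts and cardiomyocytes, with MHC class II mostly in macrophages and dendritic cells.

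Whole hearts were profiled by sequencing of poly(A) RNA, 1 library per heart, in 2 runs that each held 1 model with its own controls. The db/db+Aldo group (n = 8, 4 of them female) was Leprdb/db mice, which are obese and diabetic for want of functional leptin receptors, carrying osmotic pumps that delivered aldosterone at 0.3 µg/h for 4 weeks from 12 weeks of age. The sham group (n = 7, 4 of them female) was wild-type mice with vehicle pumps (saline with 5% ethanol) from the same age. The HFD+L-NAME group (n = 4, 2 of them female) was wild-type mice given, for 15 weeks from 10 weeks of age, a high-fat diet (60 kcal% fat) together with drinking water that held 0.5 g/L of L-NAME, which inhibits nitric oxide synthases, and the chow group (n = 4, 2 of them female) was age-matched wild-type mice on standard chow. All mice were on the C57BL/6J background. The effects of genotype and aldosterone, or of diet and L-NAME, cannot be told apart in this design, and levels are not compared across the models because run and model coincide. The libraries summed to 21258779 to 25692431 recovered reads. Beyond 1 heart per library the sources used here do not describe how independent the samples were, and p-values then measure only the spread between these hearts.

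Levels below are normalised read counts, that is, read counts divided by a size factor per library. Changes are differences of mean log2(normalised count + 1), treated minus control hearts, with their standard error (SE). This scale understates the change of genes with few reads. A gene is called where limma's adjusted p over all genes tested in that model is under 0.05, and "rose" and "fell" are used of called genes only. Coordinates refer to GRCm38.

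RefSeq's promoter table (GRCm38.p6), which gives 250 bases before to 50 bases after an annotated start, held an entry for 35 of the 49 genes. The windows were searched on both strands for the ISRE core, which is GAAA, any 2 bases and GAAA again (TTTC, any 2 bases and TTTC on the other strand), and for the GAS core, TTCNNNGAA, which reads the same on both strands. A gene was counted where any of its windows held the core. The ISRE core was present in 16 of the 35 genes (45.7%). It was present in 3.99% of all 27025 genes with an entry and in 3.72% of the tested genes with an entry. The GAS core was present in 9 of the 35 (25.7%), against 9.55% of all genes and 8.1% of tested genes with an entry. All 6 GTPase genes with an entry (Gbp2, Gbp3, Gbp5, Gbp7, Igtp and Irgm1) held an ISRE core, as did 7 of 16 effectors and 1 of 5 MHC class I genes (B2m), and neither MHC class II gene with an entry held either core. The promoters below are those of the called regulators and GTPases that held a searched core, printed in the direction of transcription with the matches in capitals. They are shown because these 6 genes fell in db/db+Aldo hearts, as described further on. The windows lie on the plus strand at chr10:128270248-128270547 for Stat2, chr11:53769764-53770063 for Irf1, chr3:142620413-142620712 for Gbp2, chr3:142559794-142560093 for Gbp3, chr3:142496684-142496983 for Gbp5 and chr3:142530086-142530385 for Gbp7. In Gbp3 a pair of ISRE matches overlaps by 4 bases. Gbp3 and Irf1 each had a further window, not printed, that held neither core.
Stat2: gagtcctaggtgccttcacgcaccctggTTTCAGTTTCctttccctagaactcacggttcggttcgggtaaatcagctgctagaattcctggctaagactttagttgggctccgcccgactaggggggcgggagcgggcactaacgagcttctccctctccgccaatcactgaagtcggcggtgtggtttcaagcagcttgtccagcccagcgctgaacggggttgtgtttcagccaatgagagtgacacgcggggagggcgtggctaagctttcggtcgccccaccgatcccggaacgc
Irf1: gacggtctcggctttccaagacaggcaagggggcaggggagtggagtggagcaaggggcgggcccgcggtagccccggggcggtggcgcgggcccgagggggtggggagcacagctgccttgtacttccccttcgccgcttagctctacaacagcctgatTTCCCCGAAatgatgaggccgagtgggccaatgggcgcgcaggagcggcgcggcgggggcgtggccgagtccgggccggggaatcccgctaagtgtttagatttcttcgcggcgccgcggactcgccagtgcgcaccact
Gbp2: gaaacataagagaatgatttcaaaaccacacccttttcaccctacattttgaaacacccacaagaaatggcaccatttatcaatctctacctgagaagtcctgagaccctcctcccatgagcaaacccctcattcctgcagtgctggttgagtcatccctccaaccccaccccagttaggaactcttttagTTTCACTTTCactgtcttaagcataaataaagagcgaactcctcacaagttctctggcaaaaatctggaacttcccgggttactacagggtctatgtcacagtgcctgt
Gbp3: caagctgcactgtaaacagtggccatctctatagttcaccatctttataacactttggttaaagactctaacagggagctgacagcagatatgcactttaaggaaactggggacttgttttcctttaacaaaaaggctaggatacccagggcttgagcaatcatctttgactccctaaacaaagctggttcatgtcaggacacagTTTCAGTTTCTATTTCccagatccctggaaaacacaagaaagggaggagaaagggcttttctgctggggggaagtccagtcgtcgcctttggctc
Gbp5: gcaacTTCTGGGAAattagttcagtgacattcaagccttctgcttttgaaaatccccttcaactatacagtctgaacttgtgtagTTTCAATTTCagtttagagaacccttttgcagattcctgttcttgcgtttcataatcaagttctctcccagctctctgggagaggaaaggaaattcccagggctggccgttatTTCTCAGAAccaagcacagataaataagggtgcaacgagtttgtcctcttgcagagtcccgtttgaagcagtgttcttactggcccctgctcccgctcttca
Gbp7: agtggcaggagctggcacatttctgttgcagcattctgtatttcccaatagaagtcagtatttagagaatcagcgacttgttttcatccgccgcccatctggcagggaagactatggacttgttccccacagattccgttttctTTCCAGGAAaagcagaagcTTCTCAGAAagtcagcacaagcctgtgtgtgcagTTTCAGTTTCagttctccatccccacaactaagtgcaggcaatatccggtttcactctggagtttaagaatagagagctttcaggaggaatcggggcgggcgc
The ISRE matches of Gbp2, Gbp3 and Gbp7 began 59, 45 and 53 bases before the annotated start, that of Gbp5 began 165 bases and that of Stat2 222 bases before it. The GAS match of Irf1 began 90 bases before its start. Among the 17 members with an entry that were called lower in db/db+Aldo hearts, 10 held an ISRE core (58.8%), and among the 18 other members 6 did (33.3%). A match of these letters is a description and does not show that a factor binds there.

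**Figure D1:**
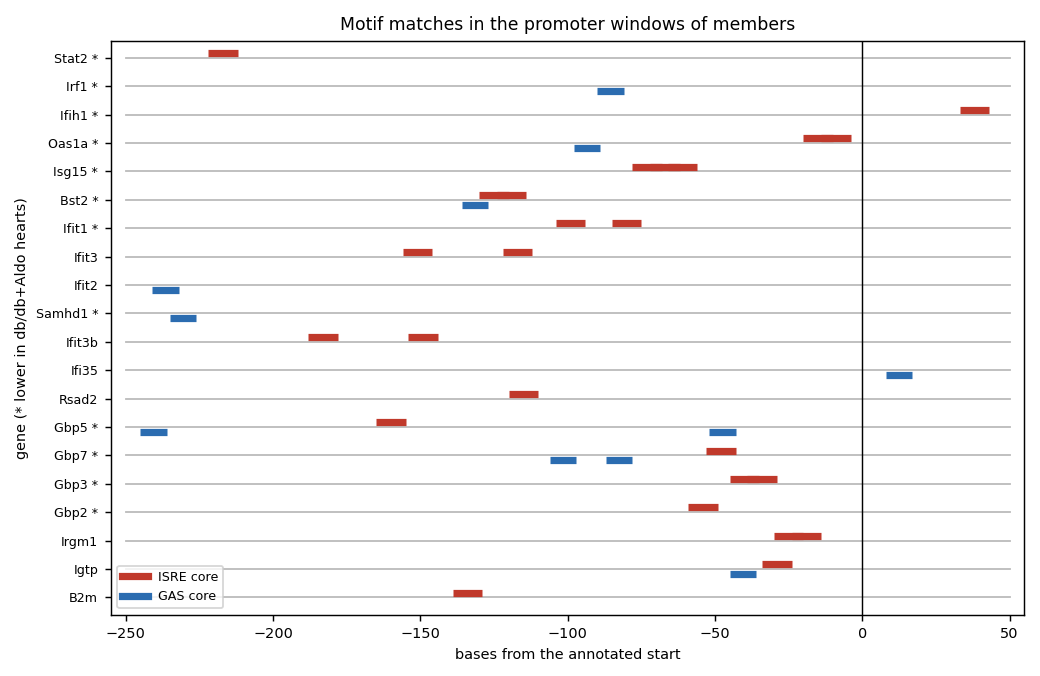
Positions of ISRE core matches (red) and GAS core matches (blue) in the promoter windows of the members that hold at least 1, in bases from the annotated start (0). Asterisks mark genes called lower in db/db+Aldo hearts, and the ISRE matches of the 4 guanylate-binding protein genes begin between 165 and 39 bases before the start.

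The first comparison asked how these genes differ between hearts of the db/db+Aldo model and sham hearts. Of the 49 genes, 24 fell and 0 rose, while 9.21% of all 14121 tested genes were called lower and 9.96% higher. The median difference was −0.32 over the 49 genes, against −0.02 over all tested genes, and 47 of the 49 lay below 0. The exceptions were Igtp, an immunity-related GTPase (0.30 ± 0.25, adjusted p = 0.438), and Rsad2, the antiviral enzyme viperin (0.10 ± 0.16, adjusted p = 0.704), neither of which passed the test. By role, 7 of 10 GTPases fell (median −0.70), as did 4 of 5 regulators (median −0.47), 11 of 20 effectors (median −0.32), 1 of 4 sensors (median −0.25), 1 of 6 MHC class I genes (median −0.26) and 0 of 4 MHC class II genes (median −0.25). In the authors' deposited table of this comparison 23 of the 49 genes were lower and 0 higher at an adjusted p under 0.05.

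**Figure D2:**
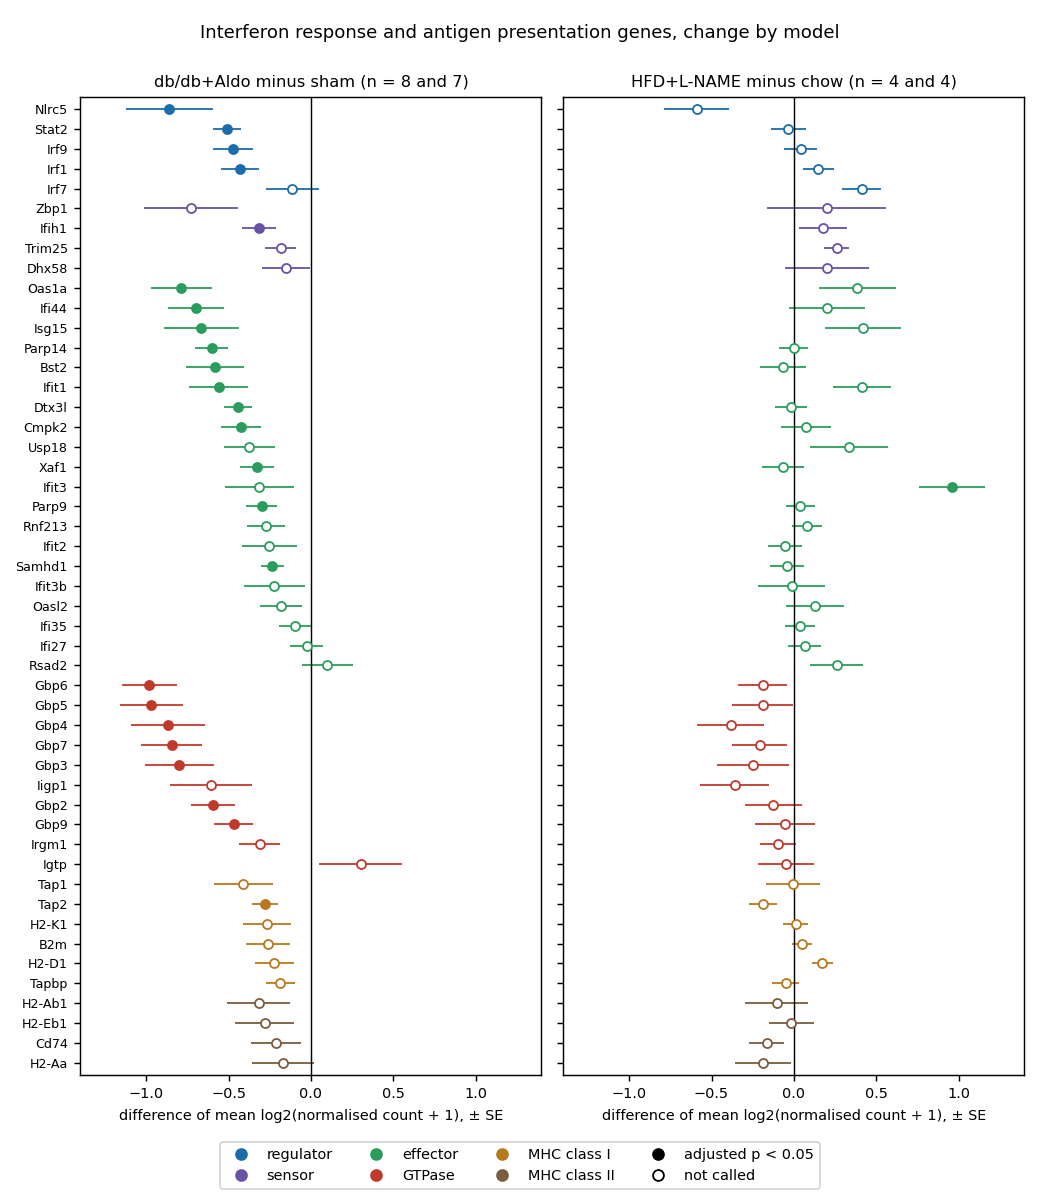
Difference of mean log2(normalised count + 1) for each of the 49 genes in db/db+Aldo minus sham hearts (left) and HFD+L-NAME minus chow hearts (right), with SE bars, colours for roles and filled points for adjusted p under 0.05. On the left 24 points are filled and all of these lie below 0, and on the right 1 is filled (Ifit3, 0.96).

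Among the regulators, Stat2, the signal transducer specific to type I and type III interferons (chromosome 10, 128270559 to 128292849), fell. Its normalised read count was 249.8, 295 and 399 (lowest, median and highest) in db/db+Aldo hearts, against 357, 442 and 467 in sham hearts. All but 1 of the 8 db/db+Aldo libraries lay below the lowest sham library, and the exception was db/db+Aldo replicate 3. The difference was −0.51 ± 0.09 (SE, adjusted p = 0.000404). Irf9, the DNA-binding partner of Stat2 (chromosome 14, 55603571 to 55610030), measured 201, 240.4 and 407 (lowest, median and highest) in db/db+Aldo hearts, against 292, 338 and 445 in sham hearts. It had the same layout, with replicate 3 as the highest of its group and the other 7 libraries below every sham library (−0.47 ± 0.12, adjusted p = 0.0102). Irf1, a transcription factor induced by interferon gamma that switches on guanylate-binding and MHC class I genes (chromosome 11, 53770014 to 53778374), measured 182, 208 and 277 (lowest, median and highest) in db/db+Aldo hearts, against 217, 277 and 379 in sham hearts. Its groups overlapped more, with 5 of 8 db/db+Aldo libraries below the lowest sham value (−0.43 ± 0.11, adjusted p = 0.0114). Nlrc5, the transactivator of MHC class I genes, fell by 0.86 ± 0.26 (adjusted p = 0.0275) on a low level that averaged 74.5 ± 47.6 in db/db+Aldo and 124 ± 41.3 in sham hearts (SD). In the authors' deposited comparison Nlrc5 did not pass (adjusted p = 0.109), and its call here was not kept in every fit that left out 1 library. Irf7, which amplifies type I interferon production, did not pass the test (−0.11 ± 0.16, adjusted p = 0.671).

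Of the sensors, only Ifih1 passed the test. Ifih1 encodes MDA5, a cytosolic receptor for long double-stranded RNA (chromosome 2, 62595798 to 62646255). It measured 127, 163 and 211 (lowest, median and highest) in db/db+Aldo hearts, against 172, 209 and 234 in sham hearts. The groups overlapped, with 5 db/db+Aldo libraries below all sham libraries, and the difference was −0.32 ± 0.10 (adjusted p = 0.0353). The Z-nucleic acid sensor Zbp1 had a larger difference on very few reads (−0.73 ± 0.29, adjusted p = 0.0832), averaging 16.5 ± 8.92 in db/db+Aldo and 26.2 ± 9.93 in sham hearts. Trim25, a ubiquitin ligase of the RIG-I pathway, and Dhx58, the helicase LGP2, differed by −0.18 ± 0.09 and −0.15 ± 0.15, without passing the test.

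The effectors that fell with the smallest p were Parp14, Dtx3l and Oas1a, and in each of these 3 genes every db/db+Aldo library lay below every sham library. Parp14, a mono-ADP-ribosyltransferase (chromosome 16, 35832874 to 35871544), measured 281, 399 and 449.7 (lowest, median and highest) in db/db+Aldo hearts, against 511, 596 and 631 in sham hearts, a difference of −0.60 ± 0.10 (adjusted p = 0.000249). Dtx3l, a ubiquitin ligase that works as a partner of Parp9 (chromosome 16, 35926511 to 35939151), measured 252, 333 and 364 (lowest, median and highest) in db/db+Aldo hearts, against 383, 419 and 473 in sham hearts, a difference of −0.44 ± 0.09 (adjusted p = 0.00124). Its neighbour Parp9, which overlaps it on the other strand, fell by less (−0.30 ± 0.10). The use of strand in counting is not given in the sources used here, so reads in the overlap cannot be assigned to either gene. Oas1a, an oligoadenylate synthetase that activates RNase L (chromosome 5, 120896256 to 120907521), was a low-count gene at 11.4, 25.2 and 27.6 (lowest, median and highest) in db/db+Aldo hearts, against 29.7, 39.7 and 48.4 in sham hearts, a difference of −0.79 ± 0.19 (adjusted p = 0.00549). Across all tested genes 1.79% had every db/db+Aldo library below every sham library, and among the 49 members these were 4, the fourth being Gbp6.

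The other 8 effectors that fell were Ifi44 (−0.70), Isg15 (−0.67), Bst2 (−0.58), Ifit1 (−0.56), Cmpk2 (−0.42), Xaf1 (−0.33), Samhd1 (−0.23) and Parp9, with SE of at most 0.23 and adjusted p between 0.00644 (Ifi44) and 0.0463 (Isg15). They include the ubiquitin-like modifier Isg15, the RNA-binding protein Ifit1, the virion tether Bst2 and the deoxynucleotide hydrolase Samhd1. Isg15 had few reads, with 23.4 ± 8.60 in db/db+Aldo and 36.6 ± 9.46 in sham hearts. The 9 effectors that did not pass the test were Usp18 (−0.37), Ifit3 (−0.31), Rnf213 (−0.27), Ifit2 (−0.25), Ifit3b (−0.22), Oasl2 (−0.18), Ifi35 (−0.09), Ifi27 (−0.02) and Rsad2 (0.10). Ifit3 and Ifit3b are near-identical copies, and how reads shared between such copies were counted is not given, so their separate values are uncertain.

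All 7 guanylate-binding protein genes fell, with differences from −0.47 ± 0.12 (Gbp9) to −0.98 ± 0.17 (Gbp6). These large GTPases assemble on the membranes of pathogens and are classical targets of interferon gamma. They lie in clusters, with Gbp2, Gbp3, Gbp5 and Gbp7 on chromosome 3 between 142493978 and 142638008 and Gbp4, Gbp6 and Gbp9 on chromosome 5 between 105077630 and 105293698. Gbp6 (chromosome 5, 105270702 to 105293698) measured 65.6, 105 and 161 (lowest, median and highest) in db/db+Aldo hearts, against 165, 197 and 256 in sham hearts, and no db/db+Aldo library reached the lowest sham library (−0.98 ± 0.17, adjusted p = 0.000371). Gbp5 (chromosome 3, 142493978 to 142522344), which promotes inflammasome assembly, measured 55.9, 90.4 and 143 (lowest, median and highest) in db/db+Aldo hearts, against 129.6, 150.2 and 288 in sham hearts. Its sham values were spread, with sham replicate 2 at 288 far above the rest, and 7 of 8 db/db+Aldo libraries lay below all of them (−0.97 ± 0.19, adjusted p = 0.00144). Gbp7 (chromosome 3, 142530342 to 142550149) measured 167, 229 and 497 (lowest, median and highest) in db/db+Aldo hearts, against 366, 413 and 695 in sham hearts. Here the highest library of each group stood apart, at 497 in db/db+Aldo replicate 3 and 695 in sham replicate 2 (−0.85 ± 0.18, adjusted p = 0.00324).

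Gbp4 fell by 0.87 ± 0.23 (adjusted p = 0.0104), Gbp3 by 0.80 ± 0.21 (0.0107), Gbp2 by 0.60 ± 0.13 (0.00382) and Gbp9 by 0.47 ± 0.12 (0.0093). Genes of this family share long stretches of sequence, and Gbp4 overlaps the span of Gbp9 on the same strand, so the division of reads between family members is uncertain. The immunity-related GTPases, which act on the vacuoles of intracellular pathogens, did not pass the test. Irgm1 differed by −0.31 ± 0.12 (adjusted p = 0.0865) and Iigp1 by −0.61 ± 0.25 (adjusted p = 0.095). In all 3 of these genes db/db+Aldo replicate 3 was far above the other 7 libraries of its group, at 722 for Igtp, 445 for Irgm1 and 1048 for Iigp1.

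**Figure D3:**
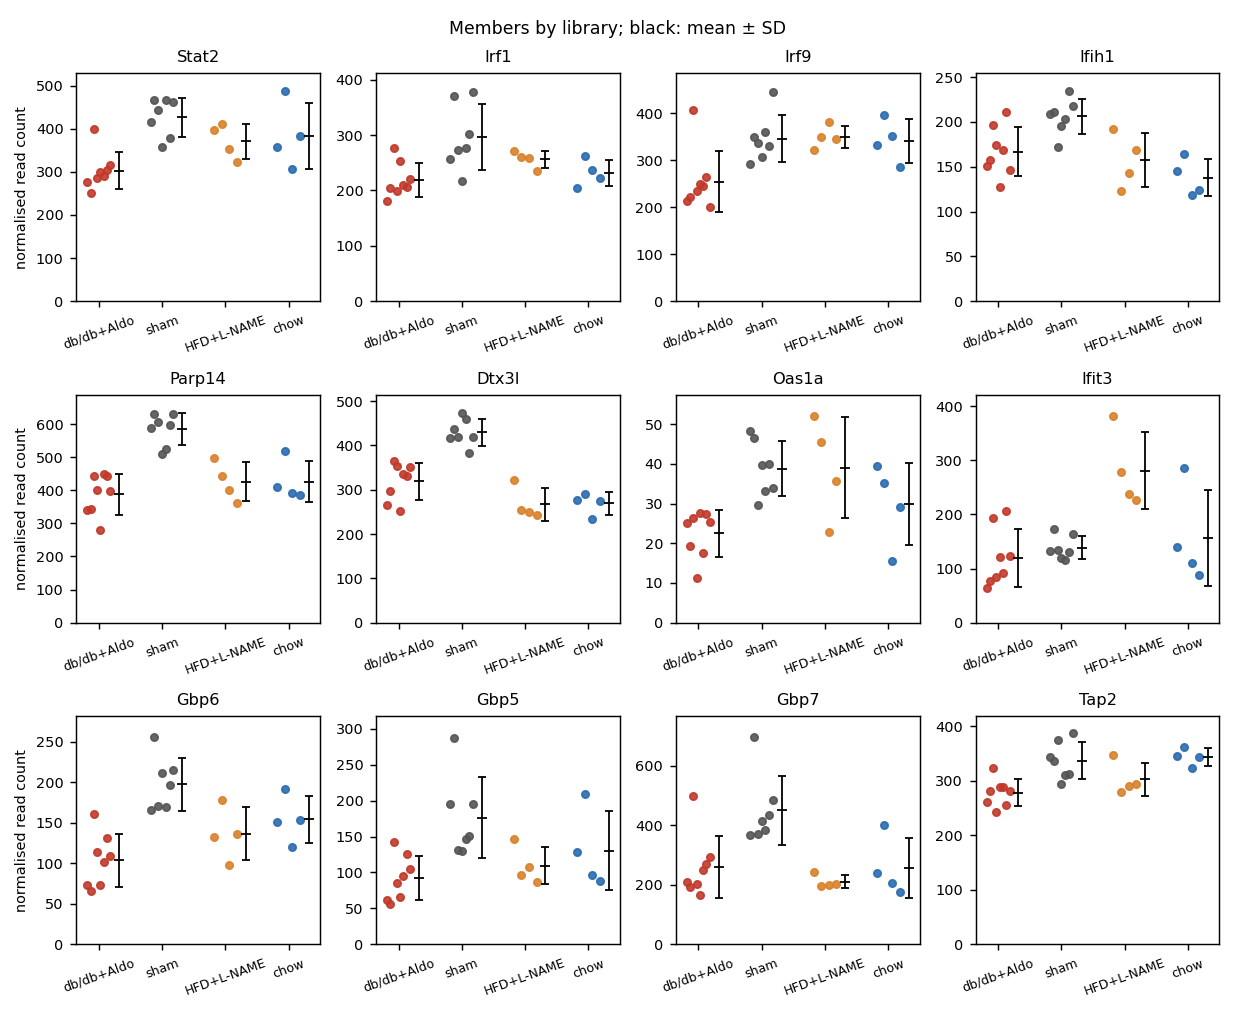
Normalised read counts of 12 members in each library of the 4 groups, with mean ± SD in black. In Parp14, Dtx3l, Oas1a and Gbp6 every db/db+Aldo point (red) lies below every sham point (grey), while the HFD+L-NAME (orange) and chow (blue) points overlap in all 12 genes.

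Of the MHC class I genes, Tap2 alone passed the test. Tap2 is a subunit of the transporter that carries peptides into the endoplasmic reticulum (chromosome 17, 34203527 to 34216321). It measured 243, 281 and 324 (lowest, median and highest) in db/db+Aldo hearts, against 294, 335 and 387 in sham hearts. Of the 8 db/db+Aldo libraries, 7 lay below every sham library, and the difference was small (−0.28 ± 0.08, adjusted p = 0.019). The other subunit Tap1 (−0.41 ± 0.18), the light chain B2m (−0.26 ± 0.13), the heavy chains H2-K1 (−0.27 ± 0.15) and H2-D1 (−0.22 ± 0.12) and the loading factor Tapbp (−0.19 ± 0.09) all lay below 0 without passing the test, with adjusted p from 0.119 to 0.224. H2-K1 and H2-D1 are similar in sequence, so reads shared between them are uncertain. Per kilobase of exon, B2m had the highest level of all 49 genes, with 3324 normalised counts per kb in db/db+Aldo and 3871 in sham hearts. On the same per-kb scale H2-D1 followed at 790.1 and 913 and Cd74 at 775 and 898, and Zbp1 was lowest at 4.69 and 7.41.

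None of the 4 MHC class II genes passed the test. H2-Ab1, a chain of the class II molecule that presents peptides to helper T cells (chromosome 17, 34257689 to 34269419), had the smallest p of these. It measured 176, 339 and 559 (lowest, median and highest) in db/db+Aldo hearts, against 259, 413 and 649 in sham hearts. The groups overlapped almost entirely (−0.32 ± 0.19, adjusted p = 0.26). H2-Eb1 differed by −0.28 ± 0.18, Cd74, the class II invariant chain, by −0.21 ± 0.15, and H2-Aa by −0.17 ± 0.19. Of markers of macrophages and monocytes in the same libraries, 5 of 13 tested were higher and 0 lower, with a median difference of 0.24 and a summed level of 6443 to 9010.2 in db/db+Aldo against 5006 to 7439.8 in sham hearts. The 5 that rose were Ccr2 (1.78), Cd68 (0.73), Lyve1 (0.52), Lyz2 (0.51) and C1qc (0.29). Of the other 8, 5 lay above 0 and 3 below it (Fcgr1, −0.22, Timd4, −0.10 and C1qa, −0.02). Dendritic cell markers summed to 318 to 483 in db/db+Aldo and 383 to 429 in sham hearts, with 1 of 3 tested markers higher (Clec9a, 0.41). Itgax (0.13) and Zbtb46 (−0.17) did not pass the test. Zbtb46 made up most of this sum, averaging 290 in db/db+Aldo and 324 in sham hearts. Across all tested genes 9.96% were called higher and 9.21% lower. In whole-heart RNA, fewer cells of a type and less RNA per cell cannot be told apart.

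The libraries did not move equally. Relative to the sham mean, the median over the 49 genes was between −0.68 and −0.15 in 7 of the db/db+Aldo libraries and 0.12 in replicate 3, a male. Its GTPase median was 0.24 and its MHC class II median 0.34, against −1.19 to −0.43 and −1.09 to 0.15 in the other 7. Among sham libraries the medians over the 49 genes were between −0.19 and 0.29, with replicate 2 highest and replicate 7 next (0.18). The number of members called lower was 30 without db/db+Aldo replicate 3 and 15 without sham replicate 2, and it was 25 without both. The share of all genes called in those fits is not reported here. The 15 genes called in all 15 fits that left out 1 library were Stat2, Irf1, Irf9, Ifi44, Oas1a, Parp14, Dtx3l, the 7 guanylate-binding protein genes and Tap2.

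**Figure D4:**
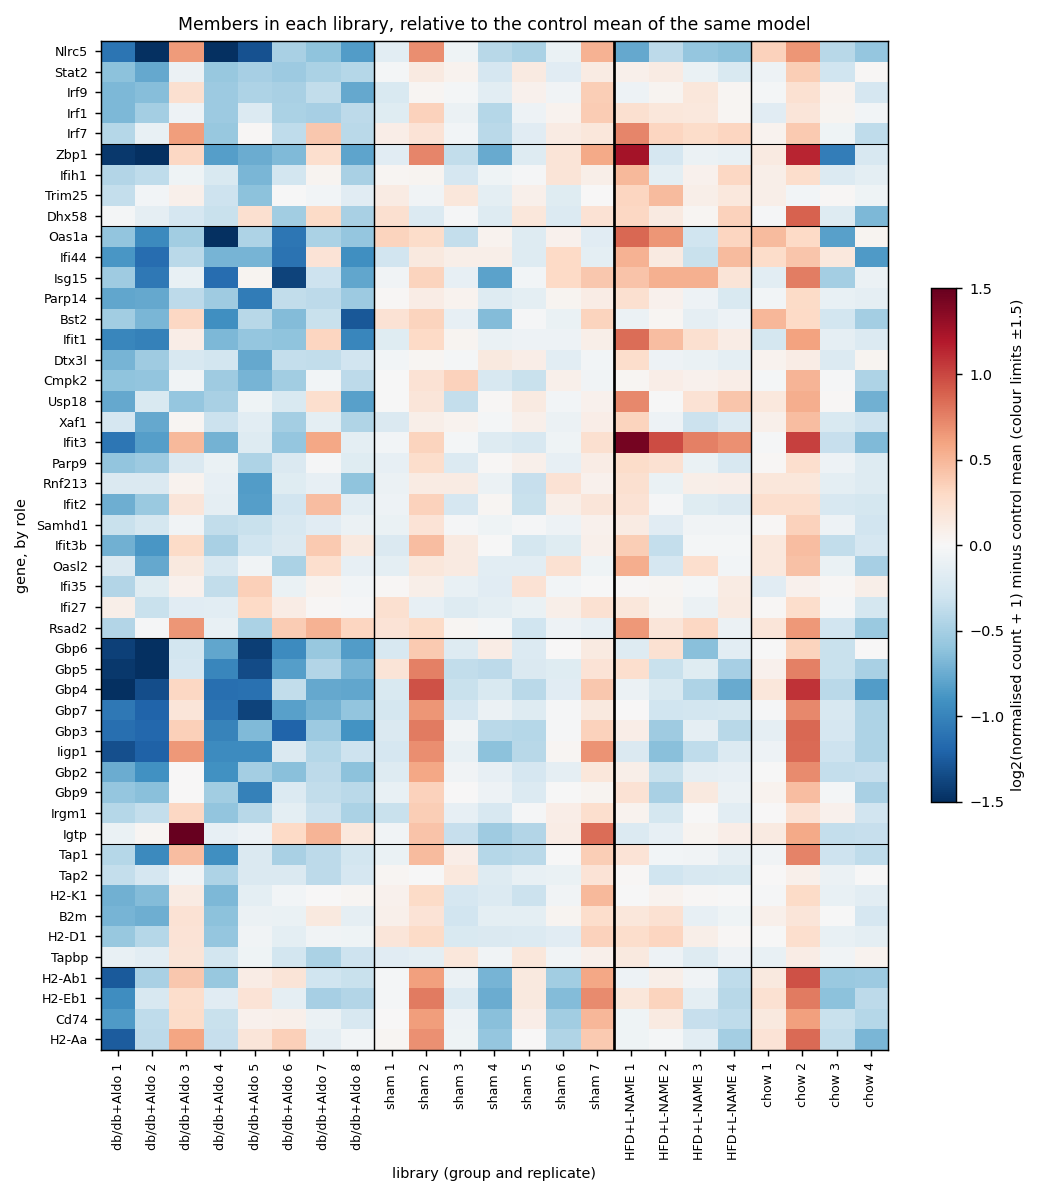
Log2(normalised count + 1) of each member in each of the 23 libraries minus the mean of the control group of the same model, with colours limited at ±1.5 and rows ordered by role. Db/db+Aldo libraries are mostly blue except replicate 3 (median 0.12), and sham replicate 2 (median 0.29) and chow replicate 2 (median 0.44) are the reddest controls.

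Library names in the db/db model fall into a series of shorter names and a series with names of 4 digits, each holding 4 db/db+Aldo hearts. What the series stand for is not given in the labels. Within the shorter names alone 9 members were called lower and 0 higher (median −0.42, with 3.97% of all genes called lower). Within the 4-digit names alone 5 were called lower and 0 higher (median −0.35, with 1.83% of all genes called lower). Stat2 and Gbp6 were called in each series. The mitochondrially encoded share of reads also moved with the group, at 41.2% to 52.8% in db/db+Aldo and 30.0% to 42.7% in sham libraries. Scaling by the total count without mitochondrial genes again gave 24 members lower and 0 higher. With total counts, no size factors or the deposited values used directly, 42, 43 and 38 members were called lower and 0 higher, but the median of all genes also shifted, to −0.22, −0.27 and −0.28. Relative to that shift the median of the 49 genes was −0.30, −0.30 and −0.32, against −0.30 with the size factors. Without the 5 libraries that an earlier account of these data doubted (replicates 1 and 5 of db/db+Aldo, replicate 3 of HFD+L-NAME and replicates 1 and 7 of sham), 15 members were called lower. These were 7 GTPases, 5 effectors and 3 regulators. The share of all genes called in this fit, and in the scaling without mitochondrial genes, is not reported here.

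Genes of the pathway outside the 49 were taken from a list of 128, of which 125 were in the table and 105 were tested in the db/db model. Among these 18 fell and 9 rose (median −0.11), against 9.21% of all tested genes called lower and 9.96% called higher, so the number that rose was near the background share. The interferon genes themselves were at or near 0, with no read of Ifng or Ifnb1 in any of the 23 libraries, where a count of 0 allows up to 3 reads. The receptor chain Ifnar1 did not pass the test (−0.08 ± 0.06, adjusted p = 0.336), whereas the interferon gamma receptor chain Ifngr1 averaged 695 ± 34.4 in db/db+Aldo and 564 ± 49.1 in sham hearts and rose (0.30 ± 0.07, adjusted p = 0.00314). The kinase Jak1, which serves both receptors, averaged 2329 ± 135 in db/db+Aldo and 3356 ± 383 in sham hearts and fell (−0.52 ± 0.07, adjusted p = 4.16e-05). Oas2, another oligoadenylate synthetase, averaged 159 ± 56.5 in db/db+Aldo and 336 ± 49.5 in sham hearts (−1.12 ± 0.16, adjusted p = 6.23e-05), and the RNA sensor Znfx1 fell as well (−0.41 ± 0.07, adjusted p = 0.000436). The endosomal RNA receptor Tlr7 rose (0.87 ± 0.16, adjusted p = 0.000665), and so did the secreted glycoprotein Lgals3bp (0.44 ± 0.11, adjusted p = 0.00856).

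By group of that list, 10 of 34 further interferon-induced genes fell and 2 rose. All counts of called genes in this paragraph stand beside 9.21% of all tested genes called lower and 9.96% called higher. Of 6 further interferon-inducible GTPases tested, 3 fell (Gbp10, Tgtp1 and Tgtp2) and 0 rose, and the median was −0.82. Gbp10 averaged 9.06 ± 5.58 in db/db+Aldo and 19.7 ± 8.64 in sham hearts, and Tgtp1 and Tgtp2 are near-identical copies, so these values are uncertain. Of 27 further antigen processing genes 1 fell and 1 rose, of 16 sensors and adaptors 2 fell and 2 rose, of 16 kinases, STATs, IRFs and inhibitors 2 fell and 3 rose, and of 6 ligands and receptors 0 fell and 1 rose. Markers of T and natural killer cells, which make interferon gamma, had few reads. Their summed level over 10 markers was 25.2 to 79.6 (median 42.7) in db/db+Aldo and 36.1 to 179.6 (median 56.8) in sham hearts. Of these, 2 were tested and 0 called, namely Trac (−0.79 ± 0.28, adjusted p = 0.0513) and Cd4 (−0.07 ± 0.24, adjusted p = 0.763). The summed endothelial markers were 28574 to 34581 in db/db+Aldo and 25969 to 31765 in sham hearts (2 of 10 higher, 1 lower) and the summed fibroblast markers 17733 to 23246 and 13992 to 17148 (6 of 8 higher, 0 lower). Of 8 cardiomyocyte markers none was at 0, and 1 was called (Myh6, lower). Neutrophil markers summed to 27.3 to 110.5 in db/db+Aldo and 36.4 to 82.6 in sham hearts, with Ly6g at 0 in every library, and B cell markers to 187 to 348 and 180.2 to 288. The part of these cell types in the differences of the members was not tested.

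The second comparison asked how the same genes differ between HFD+L-NAME and chow hearts. Here 1 of the 49 genes rose and 0 fell, against 1.18% of all 13801 tested genes called higher and 1% called lower. The median difference was −0.01 over the 49 genes and 0.00 over all tested genes, with 26 of the 49 below 0. By role the medians were 0.20 for sensors, 0.07 for effectors, 0.04 for regulators, 0.00 for MHC class I, −0.14 for MHC class II and −0.19 for GTPases. At an unadjusted p under 0.05, 5 members were higher and 2 lower, while 15.3% of all genes passed in either direction. In the authors' deposited table of this comparison 0 members were lower and 0 higher at an adjusted p under 0.05.

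The gene that rose was Ifit3, which binds Ifit1 on foreign RNA (chromosome 19, 34583531 to 34588731). It measured 381, 279, 237 and 226 in the 4 HFD+L-NAME hearts, against 139, 287, 111 and 88.7 in the 4 chow hearts. The groups overlapped because chow replicate 2 lay above 3 of the 4 HFD+L-NAME hearts, and the difference was 0.96 ± 0.20 (adjusted p = 0.0307). The call was lost in 6 of 8 fits that left out 1 library (chow replicates 1, 3 and 4 and HFD+L-NAME replicates 1, 3 and 4), with differences from 0.81 to 1.22 over the 8 fits and adjusted p of up to 0.102. It was also lost without the sex covariate, without the doubted libraries and in a fit to all 23 libraries. The near-identical copy Ifit3b measured 57.6, 34.4, 43.5 and 43.5 in the 4 HFD+L-NAME hearts, against 49.8, 61.7, 34.3 and 37.0 in the 4 chow hearts, a difference of −0.01 ± 0.21, and reads shared between the copies make both values uncertain.

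In the other roles no member passed the test, and the values of the gene with the smallest p are given for each. Irf7 among the regulators measured 431, 323, 312 and 323 in the 4 HFD+L-NAME hearts, against 268, 339, 248 and 198 in the 4 chow hearts (0.41 ± 0.12, adjusted p = 0.107). HFD+L-NAME replicate 1 stood above the other 3, and chow replicate 2 lay within the HFD+L-NAME range. Trim25 among the sensors measured 541, 601, 462 and 485 in the 4 HFD+L-NAME hearts, against 460.1, 423, 439.6 and 414 in the 4 chow hearts (0.26 ± 0.08, adjusted p = 0.119). It was the only member whose groups did not overlap, a layout that 3.96% of all tested genes showed in that direction.

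All 10 GTPases lay below 0, from −0.38 (Gbp4) to −0.05 (Igtp), with none called. Gbp4 measured 313, 282, 240.4 and 195 in the 4 HFD+L-NAME hearts, against 372, 701, 251 and 184 in the 4 chow hearts (−0.38 ± 0.21, adjusted p = 0.414). Chow replicate 2 was the highest library, and without it the GTPase median was 0.00, so the sign of the group rested on that heart. The regulator Nlrc5 averaged 65.4 ± 7.12 in HFD+L-NAME and 105 ± 43.3 in chow hearts (SD, n = 4 each), a difference of −0.59 ± 0.20 (adjusted p = 0.165).

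Of the MHC class I genes, H2-D1 had the smallest p and measured 3417, 3582, 3041 and 2887 in the 4 HFD+L-NAME hearts, against 2849, 3400.1, 2652 and 2585 in the 4 chow hearts (0.17 ± 0.06, adjusted p = 0.204). B2m was almost level, averaging 6157 ± 735 in HFD+L-NAME and 5956 ± 731 in chow hearts. Tap2 differed by −0.19 ± 0.08 (adjusted p = 0.319). Of the MHC class II genes, Cd74 had the smallest p and measured 1898, 2195, 1566 and 1526 in the 4 HFD+L-NAME hearts, against 2209, 3057, 1576 and 1479 in the 4 chow hearts (−0.17 ± 0.11, adjusted p = 0.511). The 4 class II genes lay below 0, but without chow replicate 2 their median was 0.08. Macrophage and monocyte markers summed to 6720.1 to 10063 in HFD+L-NAME and 6521 to 8884 in chow hearts, with 2 of 13 tested markers higher and 0 lower. Across all tested genes of this model 1.18% were called higher and 1% lower. Of 108 further pathway genes tested, 2 rose and 0 fell, which was near the background share. They were the phosphatase Ptpn6, which restrains Janus kinase signalling (0.73 ± 0.15, adjusted p = 0.0251), and the non-classical class I gene H2-T22 (0.41 ± 0.09, adjusted p = 0.0442).

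The difference between the treatment effects of both models was tested directly, as the db/db model effect minus the HFD model effect. It was called in 5 of the 49 genes, all of them lower, against 2.38% of 14010 genes called lower and 3.14% called higher. The 5 genes were the regulator Irf1 (−0.58 ± 0.17, adjusted p = 0.0488) and the effectors Ifit1 (−0.98 ± 0.29, 0.0458), Ifit3 (−1.29 ± 0.37, 0.0371), Oas1a (−1.19 ± 0.34, 0.039) and Parp14 (−0.61 ± 0.16, 0.0221). Of these, Irf1, Ifit1, Oas1a and Parp14 were called lower in db/db+Aldo hearts and not called in HFD+L-NAME hearts, while Ifit3 was called higher in HFD+L-NAME hearts only. The difference lay below 0 in 47 of the 49 genes (median −0.41). The exceptions were Igtp (0.35 ± 0.39) and H2-Aa (0.02 ± 0.31). No GTPase, sensor or MHC gene was called, and the effects of Gbp6 were −0.98 in db/db+Aldo and −0.19 in HFD+L-NAME hearts, a difference of −0.80 ± 0.27 (adjusted p = 0.0789).

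These calls lay close to the threshold and turned on single libraries. Leaving out chow replicate 3, chow replicate 4 or HFD+L-NAME replicate 1 left 0 called. Leaving out chow replicate 1, HFD+L-NAME replicate 4, db/db+Aldo replicate 6 or sham replicate 2, 6 or 7 left 1, leaving out HFD+L-NAME replicate 2 or 3, db/db+Aldo replicate 2 or 4 or sham replicate 3 left 2, and leaving out db/db+Aldo replicate 1 left 3. Leaving out db/db+Aldo replicate 3 or 5 gave 8 and 9. For these fits the share of all genes called is not reported here. The values themselves ranged over these fits from −0.69 to −0.54 in Parp14 and from −1.39 to −0.94 in Oas1a.

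Within the db/db+Aldo group, females and males were compared. None of the 49 genes was called, while 0.0567% of all tested genes were, and at an unadjusted p under 0.05 limma found 3 members lower in females and 0 higher, all of them MHC class II genes, while 2.63% of all tested genes passed that threshold in either direction. H2-Aa measured 200.3, 361, 433 and 461 in the 4 female hearts, against 714, 373, 539 and 609 in the 4 male hearts (−0.65 ± 0.26, adjusted p = 1.00). H2-Eb1 measured 125, 203, 169 and 175 in female hearts, against 287, 213, 276 and 217 in male hearts (−0.57 ± 0.25). Every female value of H2-Eb1 lay below every male value, whereas those of H2-Aa overlapped. H2-Ab1 differed by −0.63 ± 0.26 and Cd74 by −0.41 ± 0.21. All 4 class II genes had their highest value in replicate 3, the male that was high for many members. Their lowest was in replicate 1, a doubted library. In the same contrast 42 of the 49 genes lay below 0 (median −0.14), among them all 10 GTPases and all 6 MHC class I genes. Over all tested genes 6496 of 14121 lay below 0, with a median of 0.01. The other groups, where this contrast was not tested, had female values of H2-Aa that lay mostly lower as well. They were 454.1, 317, 347 and 624.8 in female sham hearts, against 484, 762 and 476 in male sham hearts. In the HFD+L-NAME group they were 692 and 543 in females, against 742 and 761 in males, and in the chow group 601 and 480.5 in females, against 893 and 1395 in males. Of these 3 groups, the sexes overlapped for H2-Aa in sham hearts only. The sex difference of the treatment effect was called in 0 of the 49 genes and in 0 of 14121 tested genes by limma, and 0 members had an unadjusted p under 0.05.

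**Figure D5:**
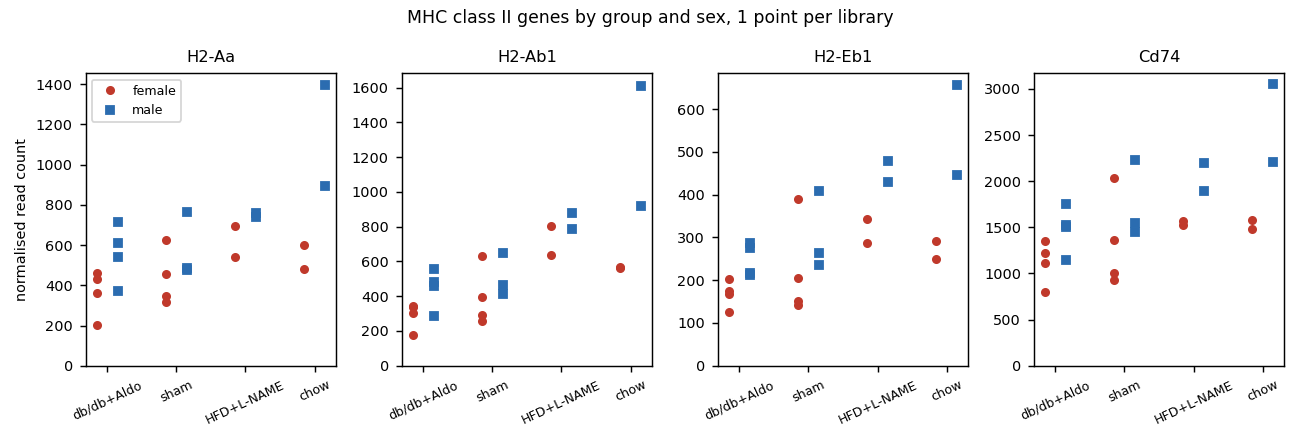
Normalised read counts of the 4 MHC class II genes by group, with females as red circles and males as blue squares. In db/db+Aldo hearts the lowest value of each gene is from the same female, replicate 1 (H2-Aa 200.3). The highest is from the same male, replicate 3 (H2-Aa 714), which was high for many members.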

How the data were processed

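Poly(A) RNA of 23 whole mouse hearts was sequenced in paired-end reads of 100 bases, and groups were taken from the sample labels. Of tools, the submitters' processing notes list featureCounts, DESeq2 and limma, and of builds GRCm38 and mm10, with no roles. Not given in the sources used here are the aligner, versions, annotation, use of strand and treatment of reads with several matches. The authors deposited a run-corrected table of 55487 genes, whose values (handled as a score) differed between libraries of a run by whole numbers in 100% of cases and lay below 0 in 10.2% of cases. They were read as counts from which each gene had a fixed amount taken in each run. The authors also deposited a table per comparison with a mean signal (counts divided by size factors), a log2 fold change and an adjusted p-value per gene, per the file headers.

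Size factors were recovered from genes with 1 read and those amounts from the mean signal, which gave whole counts (tolerance 0.001) for 52392 genes, and 3095 genes were left out. The table was not the normalized expression that the design had assumed. Counts over size factors, plus 1, were put on the log2 scale. Where a gene averaged at least 10 in a model it entered a limma 3.58.1 fit (R 4.3.3) that had a sex term and a variance trend, p-values were adjusted by Benjamini-Hochberg with a threshold of 0.05, and the procedure was tested on simulated data. The difference between models and the sex contrasts were of the same kind. The count-based alternative was limma voom, and no negative binomial test was made.

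Replicate pairs differed by a mean chi-square of at least 8.92 per gene, so none was counted as 1 sample. Positions came from GENCODE M21 on GRCm38 and promoters from RefSeq (GRCm38.p6). Python 3.11.15, numpy 2.4.6, pandas 2.3.3 and matplotlib 3.10.9 were used for the rest. The members and gene lists were chosen with earlier results of these data known. Values by library are given for the 3 called members with the smallest p in each role, or for the member with the smallest p where none is called, and any other member named is given by its difference or mean. Pathway genes named were Ifnar1, Ifngr1 and the 3 called genes with the smallest p in each direction, and 1 other gene of that rule is not reported here. Other pathway and marker genes named were chosen after their values were seen. The alternatives were other pseudocounts, filters and scalings, voom, other covariates and libraries left out, and the fits within each library name series and without db/db+Aldo replicate 3 and sham replicate 2 were added after the data were seen.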

Additional observations from a re-analysis of the deposited data

Results flagged for a closer look

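In 21 of 196 groups of values (49 genes in 4 groups) the highest library lay far from the nearest other library of its group by Dixon's test. For independent and normally distributed values chance gives about 1 in 20. The counts were not put on the log2 scale here and the genes share libraries, so that rate is only a rough guide. The 21 groups were in 18 genes, and each flagged value below is a normalised read count. In db/db+Aldo replicate 3 the flagged values were 399 for Stat2, 407 for Irf9, 185 for Nlrc5, 224 for Bst2, 282 for Gbp3, 497 for Gbp7, 722 for Igtp, 445 for Irgm1, 1048 for Iigp1 and 275 for Tap1. In db/db+Aldo replicate 7 the value of Ifi44 was 97.9. In HFD+L-NAME replicate 1 the flagged values were 431 for Irf7, 56.5 for Zbp1, 322 for Dtx3l and 243 for Gbp7. In sham replicate 2 they were 569 for Gbp2, 288 for Gbp5, 695 for Gbp7 and 580.1 for Gbp9, and in chow replicate 2 they were 125 for Ifit1 and 301 for Gbp3. Every flagged value was the highest of its group, and no lowest value was flagged.

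In 5 genes the treatment effect differed between the models by the test of the difference itself (limma, db/db model effect minus HFD model effect). The differences were −0.58 for Irf1, −0.98 for Ifit1, −1.29 for Ifit3, −1.19 for Oas1a and −0.61 for Parp14.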

How the results depend on the processing

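In the db/db model all 24 members called lower stayed below 0, and below the median of all genes, in every one of up to 33 alternative fits, and no member was called higher in any. Their number was 43 with no size factors, 42 with total-count scaling, 38 with the deposited run-corrected values and 15 without the 5 doubted libraries. It was 9 with the shorter library names alone and 5 with the 4-digit names alone, and 15 to 30 when 1 library was left out. The share of all genes called without the doubted libraries, or with 1 library left out, is not reported here. With no size factors 36% of all genes were called lower and 2.97% higher, against 9.21% and 9.96% with them, with total-count scaling 33.7% and 3.93%, and with the deposited values 35% and 2.85%. Outside the fits within 1 name series, 14 members were called throughout, namely Stat2, Irf1, Irf9, Ifi44, Oas1a, Parp14, Dtx3l and the 7 guanylate-binding protein genes. In the HFD model the number called higher was 0 in place of 1 with all 23 libraries in 1 fit, with no sex covariate, with the replicate block and without the doubted libraries, and 0 to 2 when 1 library was left out. The number whose treatment effect differed between models, 5, was 1 with no filter on low values, 10 with no size factors, 18 with total-count scaling, 8 with the deposited values, 2 with no sex covariate, 2 without the doubted libraries and 0 to 9 when 1 library was left out. The share of all genes called in this contrast under each setting is not reported here, so larger counts are not read as larger differences. The sex contrast stayed at 0 (0 to 0 when 1 library was left out), except with the replicate block, where 4 members (the MHC class II genes) were called. Same-numbered libraries were not taken as pairs, since their deviations correlated by −0.22 to 0.11 in the db/db model and 0.09 to 0.38 in the HFD model. With the replicate block 26 members were called lower in db/db+Aldo hearts. The share of all genes called in the replicate block fits is not reported here, so these counts are not read as results about the members. The causes of these changes were not tested. The 4 hearts per group of the HFD model limit what could be called there, and few reads limit Zbp1, Isg15 and Oas1a.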
